A study of Homo sapiens with 4 samples.

Results

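The DLX and MSX genes, DLX1 to DLX6, MSX1 and MSX2, were examined in the chromatin of human fibroblasts. ATAC-seq, which marks open chromatin by the insertions of a transposase, was performed in BJ-HDF, human dermal fibroblasts from ATCC. The 4 samples formed 2 groups of 2 replicates. Control cells (CTR) expressed KLF4 alone, and p63 cells expressed wild-type ΔNp63α together with KLF4, so that KLF4 was shared by both groups. Per the study's methods, KLF4 and ΔNp63α came from retroviral, doxycycline-inducible constructs, the lines were polyclonal, and a replicate was a new induction of the same lines. The authors deposited 1 peak list per group, which per the methods drew on both replicates. The peak names show 1 alignment built from a pair of inputs and do not tell replicates from the mates of 1 library, so a pileup may count either. No value per replicate could be used, so no comparison below carries an error between replicates or a p-value, and the intervals given cover counting error only.

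A peak was assigned to the family when its summit lay in the body of a DLX or MSX gene or within 50 kb of one of its annotated transcription start sites (TSS). Distances from a gene are to its nearest annotated TSS, which for genes with more than 1 TSS need not be the first. Of 103700 CTR peaks and 112294 p63 peaks in all, 32 and 41 were found there. A peak with a −log10 q of 10 or more is called a region, and 18 of 56680 CTR regions and 26 of 62343 p63 regions belonged to the 8 genes. A region was p63-only or CTR-only when no region of the other list overlapped it by at least 1 bp, and otherwise shared. A list-only region could still overlap a weaker peak of the other list. Such a region was selected for that difference, so a pileup ratio leaning to its own list is largely set by the definition. The interval of such a ratio takes no account of this selection. Where not even a weak peak of the other list overlapped a list-only region, the region is called absent from that list. The deposited peaks went down to a −log10 q of 1.31 (CTR) and 1.30 (p63). Absent, or no peak at any threshold, therefore means not called at that level, and reads may still lie there. A peak is described by 3 values: the pileup, which is the number of reads stacked over the summit, the fold enrichment of the summit over its local background, and −log10 q.

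DLX and MSX genes encode homeobox transcription factors of the NKL class. The DLX genes lie as 3 neighbouring pairs transcribed towards each other, DLX1 with DLX2, DLX6 with DLX5 and DLX4 with DLX3, and neighbours share enhancers. In the embryo, DLX5 and DLX6 are active in the ectoderm at the rim of the limb bud and in the jaw, DLX1 and DLX2 in the forebrain and the jaw, MSX1 and MSX2 in limb, tooth and skull, and DLX3 in epidermis, hair follicle, tooth and placenta. p63 is the master transcription factor of stratified epithelia. Loss of DLX5 and DLX6 causes split hand and foot, a malformation also found with mutations of TP63, and DLX3 is a known p63 target in keratinocytes.

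The sequences below are 201 bp of hg38, centred on the summit and read on the plus strand. They are shown because they are the regions without an overlapping CTR peak, the DLX5 region with the greatest p63/CTR ratio, the single CTR-only region, and the 2 distal peaks whose match to the p63 element bears on the results. The p63 element is the 20-bp site of the p53 family, which consists of a pair of decamers in a row. The C and the G of both decamer cores were required and mismatches were counted at the other 16 positions.

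Between DLX4 and DLX3, p63-only, chr17:49980891-49981091, with capitals on its best p63 element match, which has 4 mismatches: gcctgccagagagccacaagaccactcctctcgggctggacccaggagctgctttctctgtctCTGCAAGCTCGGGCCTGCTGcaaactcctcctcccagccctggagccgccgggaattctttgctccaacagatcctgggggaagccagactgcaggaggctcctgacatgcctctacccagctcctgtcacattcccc

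Downstream of DLX3, p63 peak below the threshold, chr17:49989526-49989726, with capitals on a p63 element with 2 mismatches: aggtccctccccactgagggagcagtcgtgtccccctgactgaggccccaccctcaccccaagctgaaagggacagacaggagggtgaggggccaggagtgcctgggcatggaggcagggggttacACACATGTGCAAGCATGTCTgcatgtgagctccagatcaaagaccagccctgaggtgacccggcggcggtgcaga

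Upstream of DLX4, p63-only, chr17:49943176-49943376, with capitals on the homeobox word CAATTA: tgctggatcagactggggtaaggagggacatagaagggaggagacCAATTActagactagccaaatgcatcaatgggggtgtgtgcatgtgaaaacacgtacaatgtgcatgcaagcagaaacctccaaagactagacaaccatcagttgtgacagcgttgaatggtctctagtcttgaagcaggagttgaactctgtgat

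Upstream of DLX3, p63-only, chr17:50018987-50019187, with none of the words searched: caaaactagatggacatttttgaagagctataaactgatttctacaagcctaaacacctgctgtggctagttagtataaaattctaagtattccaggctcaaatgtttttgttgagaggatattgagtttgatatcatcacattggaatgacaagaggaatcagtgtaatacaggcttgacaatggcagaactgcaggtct

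Upstream of MSX2, p63-only, chr5:174690336-174690536, with capitals on the AP-1 word TGAGTCA: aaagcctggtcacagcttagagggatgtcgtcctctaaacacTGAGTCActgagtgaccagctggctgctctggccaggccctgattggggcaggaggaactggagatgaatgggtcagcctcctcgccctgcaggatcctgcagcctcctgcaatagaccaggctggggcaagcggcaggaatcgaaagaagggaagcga

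Upstream of DLX5, p63-only, chr7:97043362-97043562, with capitals on the AP-1 word TGAGTCA: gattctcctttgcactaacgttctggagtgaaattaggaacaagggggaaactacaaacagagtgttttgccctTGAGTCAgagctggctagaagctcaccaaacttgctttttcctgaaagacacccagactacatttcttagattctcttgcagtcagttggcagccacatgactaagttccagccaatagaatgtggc

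Upstream of DLX5, CTR-only, chr7:97065105-97065305, with capitals on a match to the CTCF motif and on the homeobox word TAATTG: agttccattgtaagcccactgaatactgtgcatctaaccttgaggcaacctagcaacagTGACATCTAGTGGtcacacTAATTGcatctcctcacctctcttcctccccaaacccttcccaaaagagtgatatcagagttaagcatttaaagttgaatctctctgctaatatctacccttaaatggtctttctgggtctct

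Upstream of DLX2, shared, chr2:172121611-172121811, with capitals on a p63 element match with 4 mismatches: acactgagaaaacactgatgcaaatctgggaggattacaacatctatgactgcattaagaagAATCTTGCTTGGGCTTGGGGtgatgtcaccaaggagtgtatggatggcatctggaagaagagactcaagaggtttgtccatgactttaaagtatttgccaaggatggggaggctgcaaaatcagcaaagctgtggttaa

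Both lists were of like depth. The coverage of the background, solved from the deposited values, was 1.18 (CTR) and 1.13 (p63) reads, the median pileup of regions was 33 reads in both, and the lowest pileup of any region was 15 reads. A promoter region, with a summit within 3 kb of a TSS, was found in both lists for 8 of 8 fibroblast genes (such as COL1A1 and VIM). It was found for 3 of 8 keratinocyte genes in the CTR list and for 4 of 8 in the p63 list. Over all protein-coding genes the shares were 69.4% (CTR) and 70.8% (p63). KRT14, CDH1 and PERP had such a region in both lists and KRT5 in the p63 list alone. KRT1, KRT10, DSG3 and COL17A1 had none in either list.

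Of the 18 CTR regions at the DLX and MSX genes, 17 were shared and 1 was CTR-only, which is 5.56% (95% Wilson interval 0.988 to 25.8), beside 16.5% over the whole CTR list. Of the 26 p63 regions, 17 were shared and 9 were p63-only, which is 34.6% (19.4 to 53.8), beside 23.9% over the whole p63 list. Both intervals include the share of the whole list. Of the 9 p63-only regions, 5 overlapped a weaker CTR peak and 4 were absent from the CTR list (12.0% over the whole list), whereas the CTR-only region was absent from the p63 list (3.29% over the whole list). By gene, 7 of 8 members had a p63-only region in their window, MSX1 being the exception, and among all 20033 protein-coding genes this share was 58.2%. The windows of neighbours overlap, so the members are not separate units. The 1 p63-only region of DLX1/DLX2 counted for both genes, as did that of DLX5/DLX6. Only DLX5 had a CTR-only region, as did 41.9% of protein-coding genes. The p63-only regions were not spread evenly: 6 of the 9 lay at DLX3 and DLX4, and without that pair 3 of 14 p63 regions were p63-only, 21.4% (7.57 to 47.6).

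**Figure D1:**
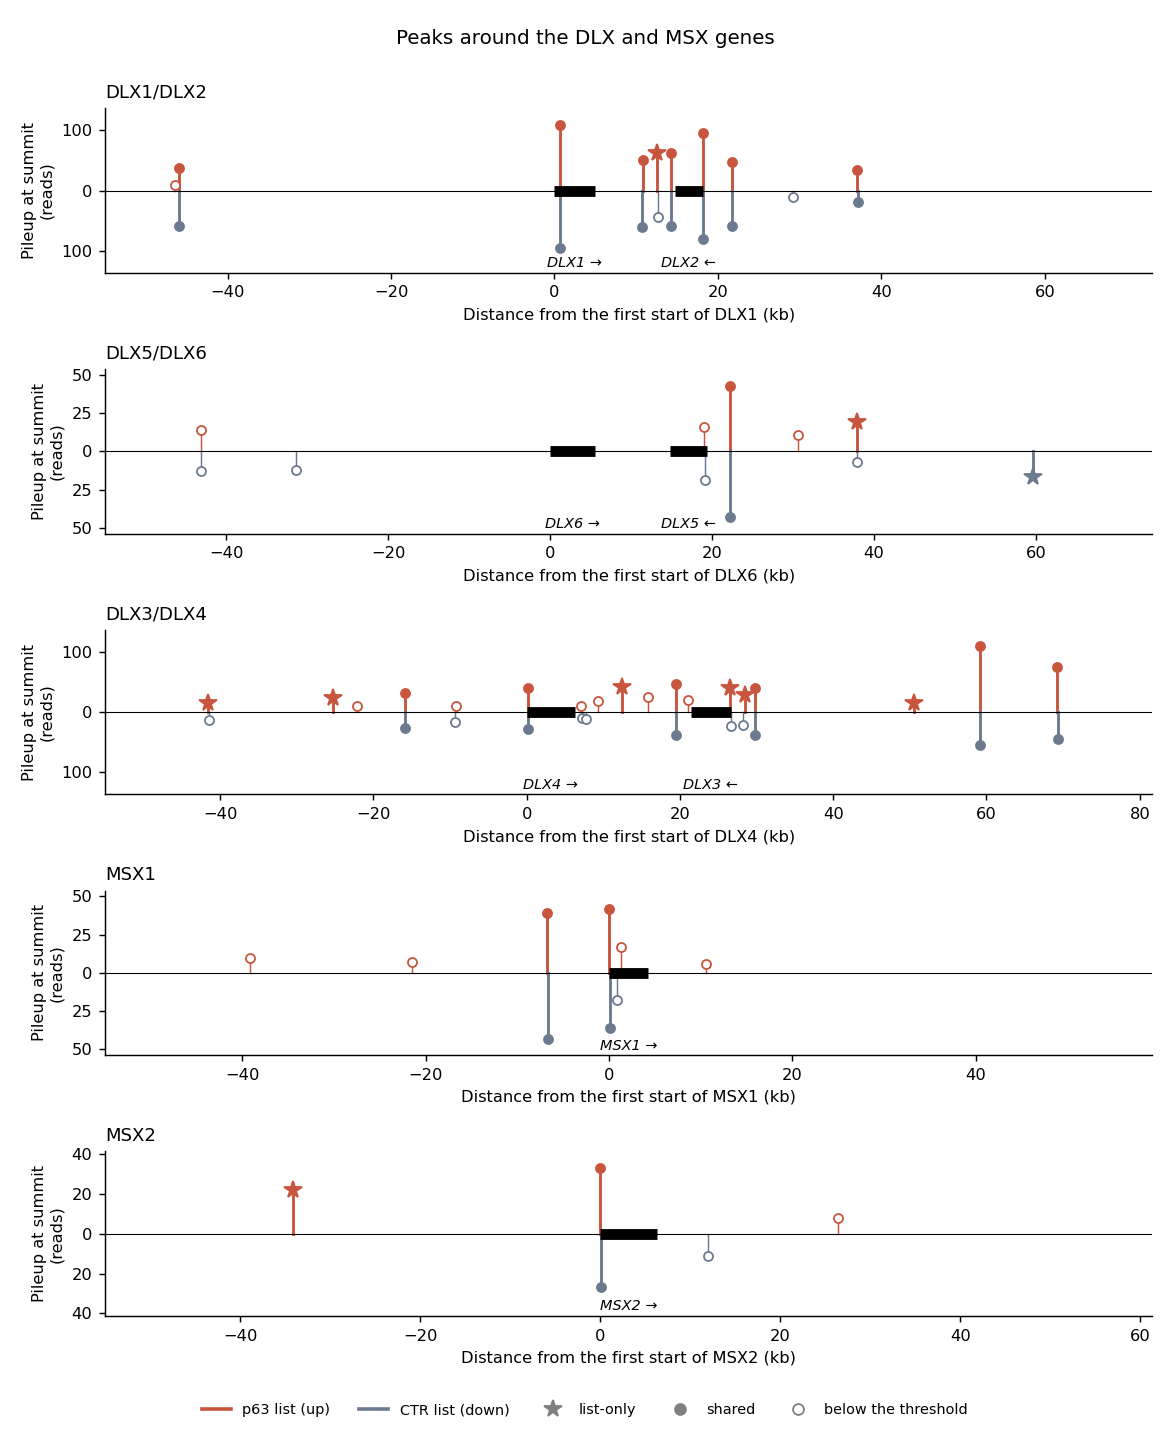
Pileup in reads at the summit of every peak (y axis, p63 list upwards, CTR list downwards) against the distance in kb from the first start of a gene of each locus (x axis). Stars mark list-only regions, filled circles shared regions, open circles peaks below a −log10 q of 10, and black bars the genes with their direction. The 6 p63-only regions of DLX3/DLX4 have no CTR-only counterpart.

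DLX4 and DLX3 lie on chromosome 17, DLX4 (ENSG00000108813.12) at chr17:49968588-49974959 on the plus strand and DLX3 (ENSG00000064195.7) at chr17:49990005-49995224 on the minus strand, with 26636 bp between their first starts. This pair had 12 p63 regions and 6 CTR regions. All 6 CTR regions were shared and 6 p63 regions were p63-only, which is 50% of the p63 regions (25.4 to 74.6). The pair was singled out after its values were seen. DLX4 had 6 p63-only regions in its window, which were all those of the pair. DLX3 had 4, and all of them were also counted for DLX4. As many or more were found at 1.32% (DLX4) and 5.92% (DLX3) of protein-coding genes, so these shares are not separate results.

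The DLX3 promoter, the start of a gene needed for epidermal differentiation and hair, was p63-only. Its pileup was 23 reads (CTR) and 40 reads (p63), a ratio of 1.74 (95% interval 1.02 to 3.04), and its −log10 q was 9.04 and 20.4. The CTR list therefore did hold a peak at this start, just below the threshold, and the p63 peak at chr17:49994886-49995345 with its summit in the untranslated part of DLX3 was the stronger of both. Being p63-only selects for a ratio above 1, so the interval of this ratio is no separate support. A second p63-only region, 1884 bp upstream of DLX3 in an intron of the noncoding gene ENSG00000248172, had 21 CTR reads and 28 p63 reads (ratio 1.33, 0.73 to 2.47), an interval that includes 1.

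The region between both genes at chr17:49980816-49981086, intergenic and 8052 bp from the nearest start of DLX4, had the highest pileup and −log10 q of the absent regions at all 5 loci. It had 42 reads in the p63 list, with an 8.23-fold enrichment and a −log10 q of 25.0, and no CTR peak at any threshold. Below the threshold, 3 other p63 peaks between the genes had no CTR counterpart, as was the case for 47.2% of all p63 peaks below the threshold. Their pileups were 19 reads at 4908 bp from DLX4, 26 reads at 9288 bp from DLX3 and 21 reads at 4077 bp from DLX3. In all, 7 of 18 p63 peaks of this pair were absent from the CTR list, beside 27.1% of all p63 peaks. In the other direction 1 of 12 CTR peaks was absent from the p63 list, beside 21.4% of all CTR peaks, and it had 12 reads at 3459 bp from DLX4.

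Farther out, a p63-only region at chr17:49943165-49943507, 25312 bp upstream of DLX4, had 23 reads and a −log10 q of 13 with no CTR peak. The region 23863 bp upstream of DLX3 had 15 reads and a −log10 q of 10.5, again with no CTR peak. The sixth p63-only region, 41541 bp upstream of DLX4 in an intron of ENSG00000254039, had 14 CTR reads and 16 p63 reads. Its −log10 q was 6.76 and 10.1, so pileups that differed by 2 reads stood on either side of the threshold. Other peaks close to the threshold were the CTR peak 9276 bp upstream of DLX4 with a −log10 q of 9.49, the p63 peak in DLX6-AS1 with 9.54, and the p63-only region upstream of DLX3 in ENSG00000248172 with 10.5.

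The 6 shared regions of DLX3/DLX4 all had a higher pileup in the p63 list, whereas the fold enrichment was higher in 4 of them and lower in 2. The lower ones were 5585 bp downstream and 3157 bp upstream of DLX3, each measured from the nearer of its 2 annotated starts. Their fold enrichments were 10.3 (CTR) and 8.54 (p63), and 7.98 and 7.06. The DLX4 promoter had 29 CTR reads and 40 p63 reads (ratio 1.38, 0.834 to 2.31). The greatest differences were at 2 upstream regions of DLX3. The first, 32582 bp from its start, had 55 CTR reads and 110 p63 reads (ratio 2, 1.43 to 2.82). The second, at 42615 bp, had 45 and 76 reads (ratio 1.69, 1.15 to 2.5). Both lie closer to ITGA3, which encodes the α3 subunit of an integrin of the basal epidermis, whose start is 28162 bp and 18129 bp away, so the window does not tell to which gene they belong. Outside of these, the 3 remaining shared regions had 27 and 32, 39 and 47, and 38 and 40 reads in the CTR and p63 lists, and the interval of each ratio included 1.

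DLX1 (ENSG00000144355.15, chr2:172084740-172089677, plus strand) and DLX2 (ENSG00000115844.11, chr2:172099438-172102900, minus strand) had the highest promoter pileups of the members. The pair had 7 CTR regions and 8 p63 regions, and 7 of them were shared. The DLX1 promoter had 96 CTR reads and 109 p63 reads, and the DLX2 promoter 81 and 96. Between and around the genes, 5 regions of the p63 list with summits from 172095575 to 172106511 stood on a high local background of 8.93 to 18.7 reads, so that their fold enrichments stayed between 3.19 and 6.95 although their pileups ran from 48 to 96 reads.

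The only p63-only region of this pair lay 5640 bp from the DLX2 start, downstream of the gene. It had 44 CTR reads and 63 p63 reads (ratio 1.43, 0.959 to 2.15), with −log10 q of 8.74 and 19.4. A pair of shared regions pointed in opposite directions. A distal region in an intron of METAP1D, 45925 bp upstream of DLX1, had 59 CTR reads and 38 p63 reads (ratio 0.644, 0.417 to 0.985), at percentile 3.57 of all paired regions. The intergenic region 18811 bp upstream of DLX2 had 19 and 34 reads (ratio 1.79, 0.992 to 3.32), at percentile 97.1.

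DLX6 (ENSG00000006377.11, chr7:97005553-97011040, plus strand) and DLX5 (ENSG00000105880.7, chr7:97020396-97024950, minus strand), the pair tied to split hand and foot, had 2 regions in each list. The shared region, 2817 bp upstream of DLX5, had 43 reads in both lists. The start of DLX5 itself had a peak below the threshold in both lists, with 19 CTR reads and 16 p63 reads (−log10 q 8.49 and 7.0). No peak of either list lay within 3 kb of a DLX6 start.

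This pair was the only locus with list-only regions of both kinds. The p63-only region, 18512 bp upstream of DLX5, had 7 CTR reads and 19 p63 reads (ratio 2.71, 1.09 to 7.64), and its fold enrichment was 3.67 and 9.40. Its fold enrichment ratio of 2.56 stood at percentile 99.5 of the paired peaks at any threshold, the highest of all member regions. Being p63-only selects for ratios above 1 and for high percentiles, so neither is separate support. The CTR-only region at chr7:97064926-97065252, 40255 bp upstream of DLX5, had 17 reads and a −log10 q of 12.6, and the p63 list held no peak there. Both upstream regions were intergenic and had low pileups, close to the 15 reads below which no region was found.

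MSX1 (ENSG00000163132.8, chr4:4859665-4863936, plus strand) had the same 2 regions in both lists and no list-only region. Its promoter had 36 CTR reads and 42 p63 reads, and the region 6768 bp upstream had 43 and 39 reads, so they went in opposite directions within their counting error. MSX2 (ENSG00000120149.9, chr5:174724582-174730896, plus strand) had a shared promoter with 27 and 33 reads and a p63-only region at chr5:174690350-174690572, 34146 bp upstream. The latter was intergenic, had 22 reads, a 10.3-fold enrichment and a −log10 q of 18.3, and was absent from the CTR list.

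**Figure D2:**
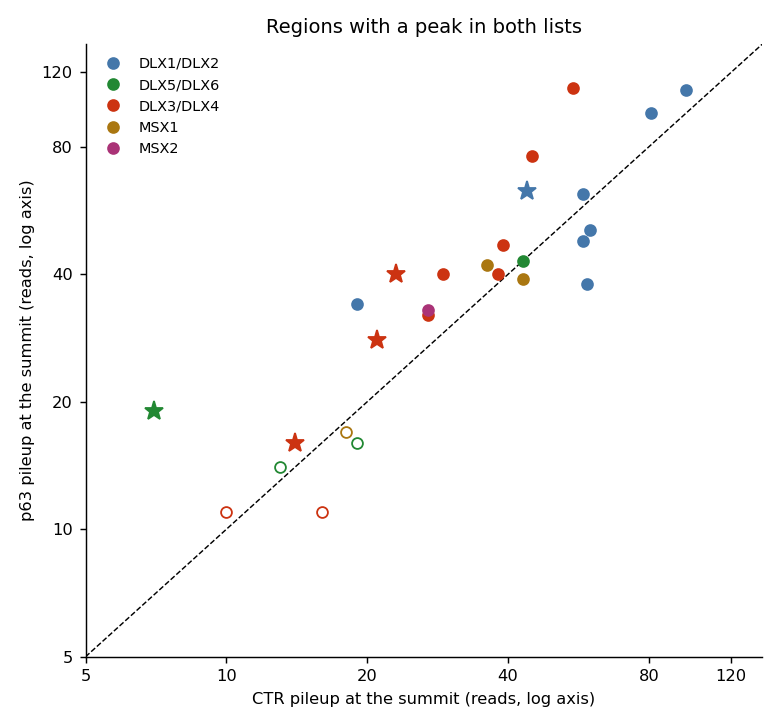
CTR pileup (x axis) against p63 pileup (y axis) in reads on log axes for the 27 regions with a peak in both lists, coloured by locus. Filled circles are regions of both lists, stars are regions of the p63 list with a weaker CTR peak, open circles are below the threshold in both, and the dashed line marks equal pileups. The 6 filled DLX3/DLX4 circles lie above the line, and DLX1/DLX2 circles lie on both sides.

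Promoters were compared by the highest pileup within 1 kb of a start. DLX1 was the highest in both lists, with 96 CTR reads (exact Poisson interval 77.8 to 117) and 109 p63 reads (89.5 to 131). DLX2 followed with 81 (64.3 to 101) and 96 reads (77.8 to 117), and its intervals overlap those of DLX1. The next 5 members stood apart from this pair, with intervals that ended below those of DLX2 in the same list. MSX1 had 36 (25.2 to 49.8) and 42 reads (30.3 to 56.8), DLX4 had 29 (19.4 to 41.6) and 40 (28.6 to 54.5), and MSX2 had 27 (17.8 to 39.3) and 33 (22.7 to 46.3), in the order CTR and p63. DLX3 was below MSX2 in the CTR list with 23 reads (14.6 to 34.5) and level with DLX4 in the p63 list with 40 (28.6 to 54.5), within overlapping intervals. DLX5 was the lowest member with a peak, with 19 (11.4 to 29.7) and 16 reads (9.15 to 26), and DLX6 had no peak. Neighbours in this order from MSX1 to DLX3 did not differ beyond these intervals in either list. Among protein-coding genes with a peak in this window, the median was 61 reads (CTR) and 62 reads (p63), so 5 of the 7 members with a peak were below the typical open start.

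**Figure D3:**
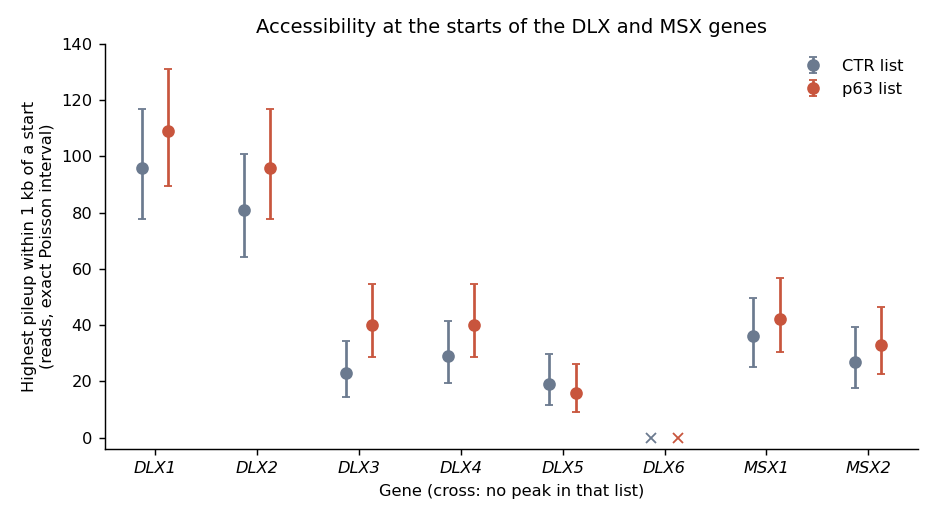
Highest pileup in reads within 1 kb of a start (y axis) for each of the 8 genes (x axis) in the CTR and p63 lists, with exact Poisson intervals that cover counting error only. DLX1 and DLX2 reach 96 and 81 reads in the CTR list and 109 and 96 in the p63 list, and the crosses at DLX6 mark that neither list held a peak.

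With the 3 kb definition and the threshold, 6 of 8 members had a promoter region in the CTR list (69.4% of all protein-coding genes did) and 7 of 8 in the p63 list (70.8%). DLX3 made the difference, and DLX6 had none in either. The RefSeq promoter table (GRCh38.p14) held 5 of the 8 members, and DLX3, DLX4 and DLX5 were missing. Both DLX2 and DLX6 had 30 CpG in the 300 bases of their RefSeq promoter, more than 77.6% of the 35116 promoters of the table, yet DLX2 had one of the highest pileups at its start and DLX6 had no peak. MSX2 had 24 CpG and the homeobox word TAATTA, which 11.4% of all promoters of the table contained (TAATTA or TAATTG, either strand). The 250 bases before the start of these 3 genes are printed 5′ to 3′ along the gene with each CpG in capitals, to set CpG-rich starts with a peak beside one without.

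DLX2, open in both lists, minus strand, chr2:172102901-172103150: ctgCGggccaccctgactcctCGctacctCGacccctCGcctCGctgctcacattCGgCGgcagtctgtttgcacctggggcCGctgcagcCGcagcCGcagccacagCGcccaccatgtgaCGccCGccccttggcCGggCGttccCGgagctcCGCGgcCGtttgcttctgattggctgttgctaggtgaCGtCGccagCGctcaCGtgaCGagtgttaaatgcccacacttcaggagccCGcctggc

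DLX6, without a peak, plus strand, chr7:97005303-97005552: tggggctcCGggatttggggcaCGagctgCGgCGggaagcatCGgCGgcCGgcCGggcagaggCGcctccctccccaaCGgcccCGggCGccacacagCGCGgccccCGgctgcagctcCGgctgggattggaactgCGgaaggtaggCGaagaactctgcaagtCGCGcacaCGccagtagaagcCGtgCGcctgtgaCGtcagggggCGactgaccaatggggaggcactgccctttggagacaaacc

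MSX2, open in both lists, plus strand, chr5:174724332-174724581: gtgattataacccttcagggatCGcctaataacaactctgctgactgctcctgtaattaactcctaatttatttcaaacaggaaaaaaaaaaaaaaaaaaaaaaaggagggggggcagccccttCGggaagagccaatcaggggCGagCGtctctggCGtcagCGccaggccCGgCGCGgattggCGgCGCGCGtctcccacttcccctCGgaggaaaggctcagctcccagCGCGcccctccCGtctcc

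Of the 17 paired regions of all 8 genes, 12 had a higher pileup in the p63 list, 1 an equal one and 4 a lower one. Of all 47178 paired regions 23573 had a higher one and 45.3% a lower one. The median p63/CTR ratio was 1.17 for the pileup and 1.08 for the fold enrichment, beside 1 and 1.04 over all paired regions. At DLX3/DLX4, 6 of 6 paired regions had a higher pileup in the p63 list, with a median ratio of 1.29. At the other loci 6 of 11 had one, with a median of 1.07. Within 1 Mb of DLX3/DLX4 but outside its window, 46 of 87 had one. The fold enrichment at DLX3/DLX4 had a median ratio of only 1.08, and it is computed relative to the local background. The local background had a median p63/CTR ratio of 1.41 at DLX3/DLX4, beside 0.96 over all paired regions and 1.03 over the 87 paired regions within 1 Mb of the pair but outside its window. It was highest at the 2 regions nearer ITGA3, with ratios of 1.79 and 1.69 (percentiles 98.9 and 98.4). It reached 1.6 at the region 5585 bp from the nearer DLX3 start. The part of the local background in these ratios was not tested.

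**Figure D4:**
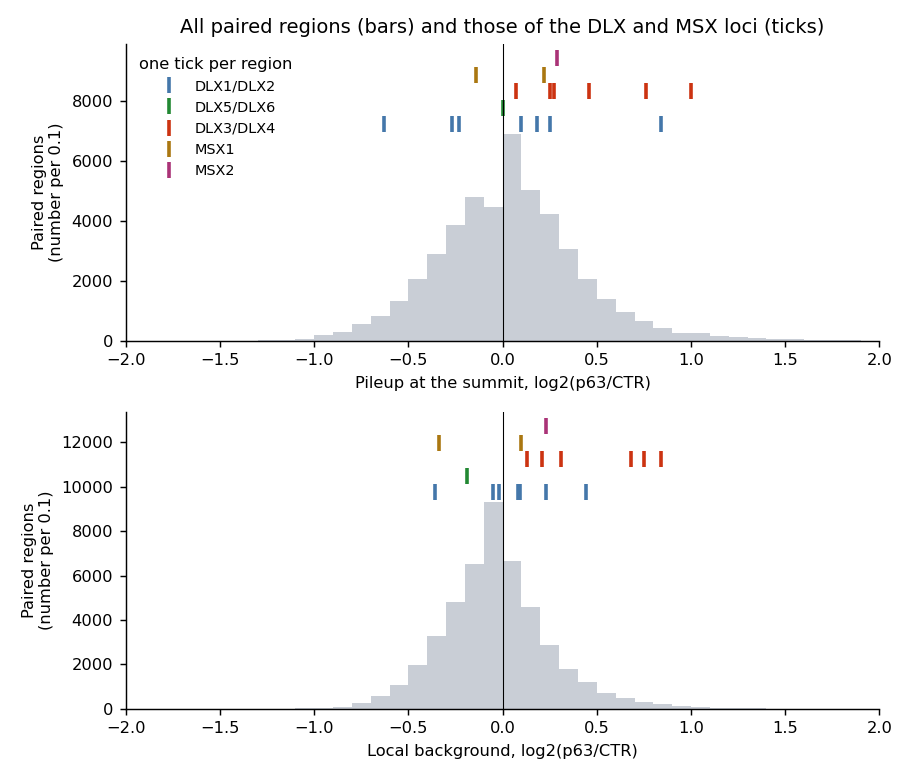
Number of paired regions (y axis) by log2 of the p63/CTR ratio (x axis) of the pileup at the summit (top) and of the local background (bottom) for all paired regions (bars), with a tick for each of the 17 paired regions of the DLX and MSX loci. All 6 DLX3/DLX4 ticks lie to the right of 0 in both plots.

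The sequences around the summits were searched on both strands within 100 bp. A p63 element with at most 3 mismatches was found in 0 of 26 p63 regions at the DLX and MSX genes, beside 3.78% over the whole p63 list. By the rule of 3, by which a count of 0 allows a count of up to 3, this allows a share of up to 11.5%. Of the 7459 p63 regions of the whole list without any CTR peak, 18.8% had such an element, and 0 of the 4 at the DLX and MSX genes did. With 4 mismatches allowed, 2 of 26 had one (8.28% over the whole list): the absent region between DLX4 and DLX3, and the shared region upstream of DLX2 whose pileup was 19 and 34 reads. The only element with 3 or fewer mismatches near a member summit lay in a p63 peak below the threshold, at chr17:49989652-49989671. The element was 35 bp from the summit, which lay 4077 bp from the nearer DLX3 start. This element had 2 mismatches, and the peak had 21 reads, a −log10 q of 7.08 and no CTR counterpart. Among peaks of this kind in the whole p63 list, below the threshold and absent from the CTR list, 7.85% of 22228 had an element.

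The AP-1 words TGACTCA and TGAGTCA, which are each other's reverse complement, were found in 5 of 26 p63 regions (25.4% over the whole list). Among the 9 p63-only regions 3 had one, beside 22% of all p63-only regions of the list. They lay upstream of DLX4, DLX5 and MSX2. The homeobox words TAATTA and TAATTG, the core to which DLX and MSX proteins themselves bind, were found in 1 of 26 p63 regions (7.77%) and 1 of 18 CTR regions (8.59%). They were the absent p63-only region upstream of DLX4 and the CTR-only region upstream of DLX5. The latter also matched the CTCF motif, as did 1 of 26 p63 regions (8.40%). The KLF words GGGTGTGGC and GGGCGTGGC were found in 0 of 26 p63 regions, which allows up to 11.5% by the same rule, beside 1.64% over the whole list. The member regions of the p63 list had a median GC content of 62.9% and a median of 9 CpG in 201 bp, beside 50.2% and 3 over the whole list, and the 4 absent regions had 52.7% and 3.

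To place the family among related genes, 4 lists were counted in the same windows. Of the p63 regions near 14 epidermal transcription factors, 26 of 83 were p63-only (31.3%, 22.4 to 41.9), near 37 other NKL-class homeobox genes 28 of 96 (29.2%, 21 to 38.9), near 31 limb and ectoderm genes 29 of 107 (27.1%, 19.6 to 36.2), and near 15 mesenchymal transcription factors 16 of 91 (17.6%, 11.1 to 26.7). The intervals of all 4 lists overlap that of the DLX and MSX genes. CTR-only shares were 14.9%, 13.9%, 18.8% and 12.9% in the same order, beside 5.56% at the DLX and MSX genes with the interval given above.

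No gene of these lists had as many p63-only regions as DLX4, whose window also takes in those of DLX3. The epidermal regulators EHF, ELF3, GRHL2 and GRHL3 had the most, 4 each, the same number as DLX3. In the limb list BMP7, LHX2, LMX1B, PITX1 and WNT7A had 3 each, and PITX1, a regulator of hindlimb identity, had 3 p63-only among its 4 p63 regions. Among the NKL-class genes EMX1 and TLX1 had 3 each, and among the mesenchymal factors PRRX2 had 3. The most CTR-only regions were 3, at EN1, which patterns the ventral limb ectoderm, and at the mesenchymal factors FOXC2 and FOXF1. At EN1 all 3 CTR regions were CTR-only and the p63 list had 0 regions. Of these 3, 2 overlapped a weaker p63 peak and 1 was absent from the p63 list. At FOXC2 and FOXF1 all 3 CTR-only regions overlapped a weaker p63 peak. FOXC2 had 9 CTR and 8 p63 regions with 1 p63-only, and FOXF1 had 5 and 3 with 1 p63-only. Windows of genes in a list can overlap, as for the DLX pairs, so FOXC2 and FOXF1 may share regions and are not separate counts. In the other lists VAX1, ELF3 and GRHL3 had the most, with 2 CTR-only regions each.

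**Figure D5:**
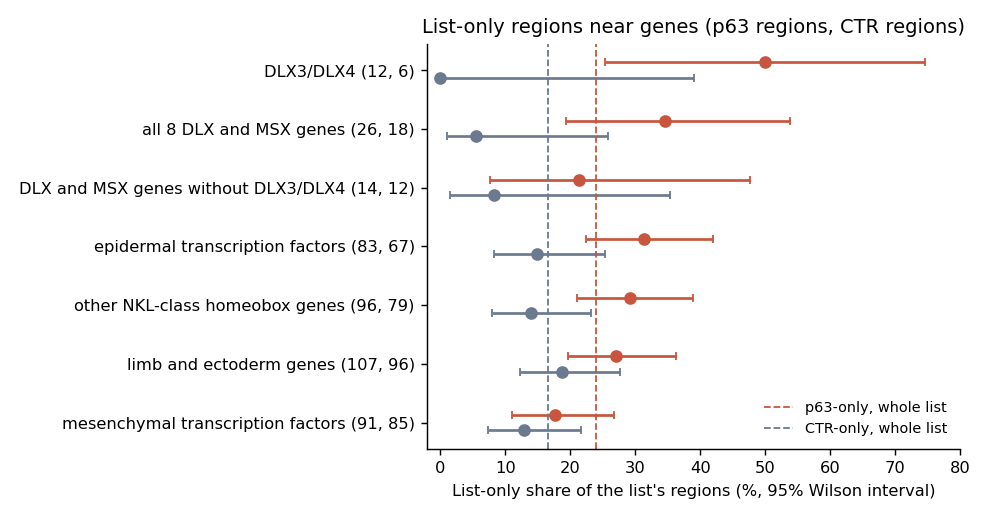
List-only share of the regions near each gene list in percent (x axis) with 95% Wilson intervals, for p63-only (red) and CTR-only (grey). Numbers in parentheses are the p63 and CTR regions, and dashed lines the shares of the whole lists, 23.9% and 16.5%. DLX3/DLX4 reaches 50%, and without this pair the DLX and MSX genes stand at 21.4%.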

How the data were processed

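ATAC-seq reads of 4 samples were mapped by the authors to hg38 with Bowtie2 2.3.4.3, and MACS2 made 1 peak list per group out of 2 replicates (per the study's methods). Whether reads or peaks were combined, and the version and options of MACS2, were not given in the sources used here. Each deposited list gives, for every peak, the −log10 q, the −log10 p, the fold enrichment over its surroundings and the summit offset, which are values of the authors' caller and were not scaled between lists. The threshold on −log10 q was 10. Pileup and local background were solved from the deposited fold enrichment and −log10 p, and 99.98% of the peaks of either list came out whole within 0.001 of −log10 p. The options of the caller set how reads were extended, so a pileup is a count on the caller's scale. Reads without molecular identifiers are not independent molecules, and a summit is a maximum, so intervals cover counting error only. Annotation was GENCODE release 44, and lists were compared with Python 3.11.15 and scipy 1.17.1. Shares have Wilson intervals, except that the limits for motif counts of 0 use the rule of 3. Pileup ratios have exact conditional binomial intervals. CTCF matches allowed 1 mismatch, and the shorter words 0. Scripts were tested on simulated data. Named are all 8 members, every list-only region, the strongest region of each locus, and the genes of each related list with the most p63-only or the most CTR-only regions, including those tied. A few further regions were chosen after their values were seen. The 8 genes, the related lists and the alternatives were chosen with earlier results of these data known.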

Additional observations from a re-analysis of the deposited data

How the results depend on the processing

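No paired analysis was possible because each group has 1 list for both replicates, so neither replicate could be left out or matched by its number. The counts depend on the threshold and the window. With all deposited peaks the CTR regions numbered 32, the p63 regions 41 and the CTR-only ones 5, and at a stricter −log10 q of 20 the counts were 16 p63 regions, 5 p63-only and 2 CTR-only. A window of 10 kb left 16 p63 regions, 4 p63-only and 0 CTR-only (a share of 0%), and one of 100 kb gave 37 CTR regions, 45 p63 regions and 6 CTR-only. An overlap of 50% of both peaks gave 2 CTR-only regions. The CTR-only share of 5.56% became 15.4% at a −log10 q of 20 and 15.6% with all peaks. It was 16.2% at 100 kb and 11.1% at 50% overlap. Over the whole CTR list the share was 16.5% at the main threshold and 21.4% with all peaks. The whole-list share at a −log10 q of 20 or at 50% overlap is not given here, so those settings have no matching value. Counting only regions absent at any threshold left 4 p63-only, a share of 15.4%. Without DLX3 and DLX4, an alternative chosen after seeing the data, 14 p63 regions and 3 p63-only remained, a share of 21.4%. The p63-only share stayed between 25% and 38.5% under the remaining alternatives. Allowing 4 mismatches gave 2 p63 regions with a p63 element and searching whole peaks gave 1, the shared region 42615 bp from DLX3. The median p63/CTR ratio of paired regions was 1.04 after scaling to all paired regions, 1.17 for the pileup and 1.08 unscaled. Merging touching peaks left 18 CTR regions and 26 p63 regions. Equal numbers of top-ranked peaks in both lists left 6 p63-only regions, a share of 26.1%, and 1 CTR-only region. The main setting gave 9 p63-only regions and 34.6%. The whole-list share with equal numbers is not given here. At the threshold chosen no region had a pileup under 15 reads, and the deposited peaks went down to 6 reads, so differences below 6 reads could not be examined.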
